A study of Mus musculus with 4 samples.

Results

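Bidirectional lncRNAs were the long non-coding RNAs that the study's lists class as bidirectional. The term is used for a lncRNA that starts head to head with a neighbouring gene and is transcribed away from it. The members were taken from 5 lists of lncRNAs, 3 of rises and 2 of falls. The listed lncRNAs differed at least 2-fold between 0 h and 24, 72 or 96 h of osteoclast induction. A probe was kept when bidirectional was its only class, when the scanner software called its signal well above background on 1 or more arrays, and when its symbol was not that of a pseudogene. This gave 216 probes of 210 gene symbols at 208 loci, out of 3937 listed probes and 60804 probes in the value table. The change itself thus chose the members. In the copies of the lists used here no cut is marked for the rises at 24 and 72 h (1639 and 1887 rows), which may still lack rows. For the other lists, 766 rows of the list of rises at 96 h were not used here, and most rows of the lists of falls were not used here either. A predominance of rises therefore says nothing about this class.

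RAW264.7, the source of the RNA, is a macrophage-like cell line of the mouse whose cells become osteoclasts in culture. Induction was with RANKL (100 ng/mL) together with M-CSF (50 ng/mL), and the 4 arrays were labelled monocyte (0 h), pre-osteoclast (24 h), mature osteoclast (72 h) and activated osteoclast (96 h). Each time point had 1 array of the 1-colour Arraystar Mouse LncRNA V3.0 design, so no p-value, standard error or interval was computed. All groups are 1 cell line, and cells of the line are a model of precursors from bone marrow rather than such cells. The defining osteoclast and macrophage genes have no named probe in the files used here, so the stage labels were not checked against them. Slide 1 carried the arrays of 0 h and 72 h, while those of 24 h and 96 h were on slide 2. Slide and time cannot be told apart where 24 h or 96 h is set against 0 h.

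As background, many mammalian promoters fire in both directions. A protein-coding gene is transcribed one way and an unstable or a stable non-coding RNA the other way, often from a CpG-rich stretch that holds no TATA box. Such lncRNAs can follow their neighbour, act on it in cis or do neither. RANKL is the cytokine that drives macrophage precursors to fuse into multinucleated osteoclasts, and M-CSF keeps these precursors alive.

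A RefSeq gene with its start on the other strand within 1000 bases was found for 162 of the 205 members that do not lie on chromosome 18, or 79.0%. The promoter table of GRCm38.p6 holds no entry for chromosome 18, where 11 members lie. The other 43 members had no such start in this table. All 162 partners were protein-coding genes, 158 in number, since Atxn7l1, Cct8, Copb2 and H3f3a each faced 2 members. The same search found a start for 2.76% of 1886 intergenic, 8.25% of 291 intronic antisense, 9.71% of 896 exon sense-overlapping and 31.9% of 405 natural antisense lncRNAs of the same lists. For natural antisense lncRNAs most of these ends overlapped (101 of 129). The class annotation thus matched the positions in this build for most members searched, although class and position are not independent.

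The 5′ ends of lncRNA and partner lay a median of 154 bases apart, with quartiles of 81.5 and 269.5 bases. In 118 pairs (72.8%) the ends were within 250 bases. They overlapped in 3 pairs, and the widest gap was 969 bases. Among members listed as higher at 1 time point alone, the median distance was 176 bases for 24 h (23 pairs), 158 bases for 72 h (86 pairs) and 174 bases for 96 h (22 pairs).

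**Figure D1:**
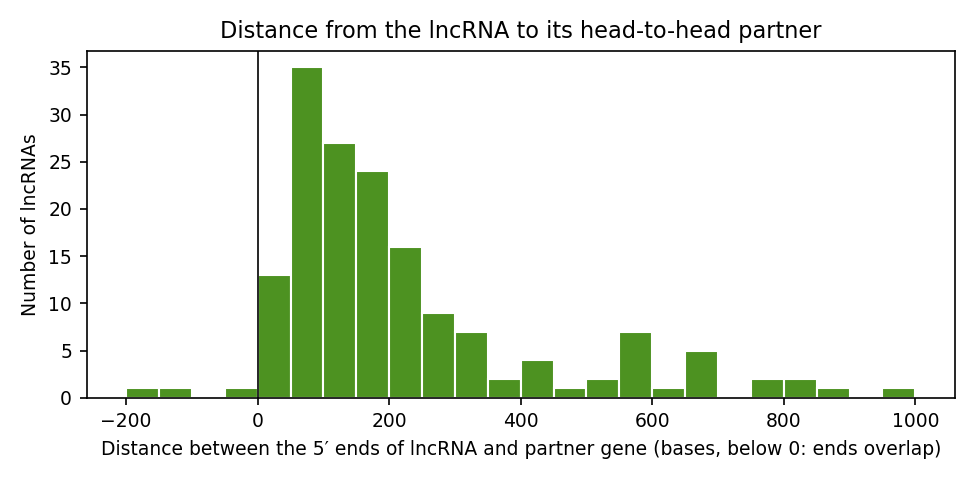
Distance in bases between the 5′ end of each lncRNA and the start of its partner gene, in bins of 50 bases, with the number of lncRNAs on the vertical axis. Of the 162 pairs, 118 are within 250 bases and 3 have overlapping ends, to the left of the line at 0.

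Promoters of 6 partner genes are shown, those of the lncRNA with the largest measured rise and of the one with the largest rise given as a bound at each later time point. They were picked after the values were seen. Each is 300 bases from RefSeq (GRCm38.p6), written 5′ to 3′ on the partner's strand, from 250 bases before the partner's start. Capitals mark the bases between the 2 starts, from which both transcripts are read outward: the lncRNA to the left and the partner to the right. The windows are chr15:81802423-81802722 (plus strand) for Tef, chr11:78301341-78301640 (plus) for Spag5, chr5:22550289-22550588 (minus) for Orc5, chr13:47106172-47106471 (minus) for Dek, chr4:103290814-103291113 (minus) for 4921539E11Rik and chr12:40037938-40038237 (minus) for Arl4a.
Tef promoter: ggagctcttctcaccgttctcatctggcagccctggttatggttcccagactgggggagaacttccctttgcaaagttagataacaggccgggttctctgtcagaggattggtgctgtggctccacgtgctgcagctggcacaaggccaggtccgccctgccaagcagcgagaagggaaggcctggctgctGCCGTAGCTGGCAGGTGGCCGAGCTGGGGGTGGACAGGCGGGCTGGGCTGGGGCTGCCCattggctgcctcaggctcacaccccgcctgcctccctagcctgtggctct
Spag5 promoter: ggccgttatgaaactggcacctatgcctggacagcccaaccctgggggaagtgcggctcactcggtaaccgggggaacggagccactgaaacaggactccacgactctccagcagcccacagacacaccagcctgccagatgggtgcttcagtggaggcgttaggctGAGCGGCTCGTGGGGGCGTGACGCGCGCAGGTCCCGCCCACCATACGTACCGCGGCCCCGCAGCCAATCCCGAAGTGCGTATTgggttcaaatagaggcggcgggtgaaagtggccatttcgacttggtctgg
Orc5 promoter: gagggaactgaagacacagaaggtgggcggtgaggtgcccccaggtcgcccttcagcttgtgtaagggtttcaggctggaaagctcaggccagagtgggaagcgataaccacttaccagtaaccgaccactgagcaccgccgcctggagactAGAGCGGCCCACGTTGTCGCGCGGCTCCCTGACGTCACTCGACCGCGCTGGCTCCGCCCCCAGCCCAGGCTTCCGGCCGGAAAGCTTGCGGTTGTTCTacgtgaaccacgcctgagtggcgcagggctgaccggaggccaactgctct
Dek promoter: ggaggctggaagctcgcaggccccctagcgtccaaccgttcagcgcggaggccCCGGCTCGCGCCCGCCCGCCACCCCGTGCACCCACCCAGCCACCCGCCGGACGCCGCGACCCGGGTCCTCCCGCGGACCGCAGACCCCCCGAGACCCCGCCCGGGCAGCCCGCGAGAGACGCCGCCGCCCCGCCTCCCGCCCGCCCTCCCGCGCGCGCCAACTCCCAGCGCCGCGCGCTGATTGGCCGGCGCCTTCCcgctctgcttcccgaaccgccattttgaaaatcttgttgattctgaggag
4921539E11Rik promoter: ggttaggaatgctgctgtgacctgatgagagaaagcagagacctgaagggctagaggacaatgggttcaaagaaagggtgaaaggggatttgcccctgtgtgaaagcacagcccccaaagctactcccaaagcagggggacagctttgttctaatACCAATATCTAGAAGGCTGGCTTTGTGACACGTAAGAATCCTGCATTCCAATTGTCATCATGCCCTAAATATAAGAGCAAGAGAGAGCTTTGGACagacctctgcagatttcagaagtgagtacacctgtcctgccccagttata
Arl4a promoter: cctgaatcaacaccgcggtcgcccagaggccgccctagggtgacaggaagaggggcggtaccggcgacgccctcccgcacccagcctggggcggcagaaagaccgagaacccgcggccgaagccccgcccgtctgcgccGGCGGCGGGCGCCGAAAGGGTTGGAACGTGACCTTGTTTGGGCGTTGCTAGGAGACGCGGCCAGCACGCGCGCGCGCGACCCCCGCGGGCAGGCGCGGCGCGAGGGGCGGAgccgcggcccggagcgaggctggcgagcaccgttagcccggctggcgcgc

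The stretch between the starts was 59 bases for AK045688 and Tef and held 3 CpG. For AK161406 and Spag5 it was 83 bases with 13 CpG, and for AK044020 and Orc5 98 bases with 13 CpG. For AK006396 and Dek it was 197 bases with 36 CpG, for 4930456L15Rik and 4921539E11Rik 95 bases with 1 CpG, and for 4930555J06Rik and Arl4a 111 bases with 21 CpG. The window of 4921539E11Rik was the poorest of the 6 in CpG, with 0.06 of the number its base composition would give and 47.7% GC. Tef followed with 0.29, while Arl4a reached 1.11.

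Over the 158 partner promoters, the median ratio of observed to expected CpG was 0.88 and the median GC content 65.7%. All 21263 protein-coding promoters of the table had medians of 0.57 and 56.3%, and all 32851 promoters, lncRNA genes included, 0.38 and 52.7%. A ratio over 0.6 was found in 136 partner promoters (86.1%), against 47.6% of protein-coding promoters. These features were not used in choosing the members. The members had to be detected in these cells, however, while the promoters set beside those of their partners were not limited to genes active there. The part of this in the differences of CpG, GC and motifs was not tested.

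**Figure D2:**
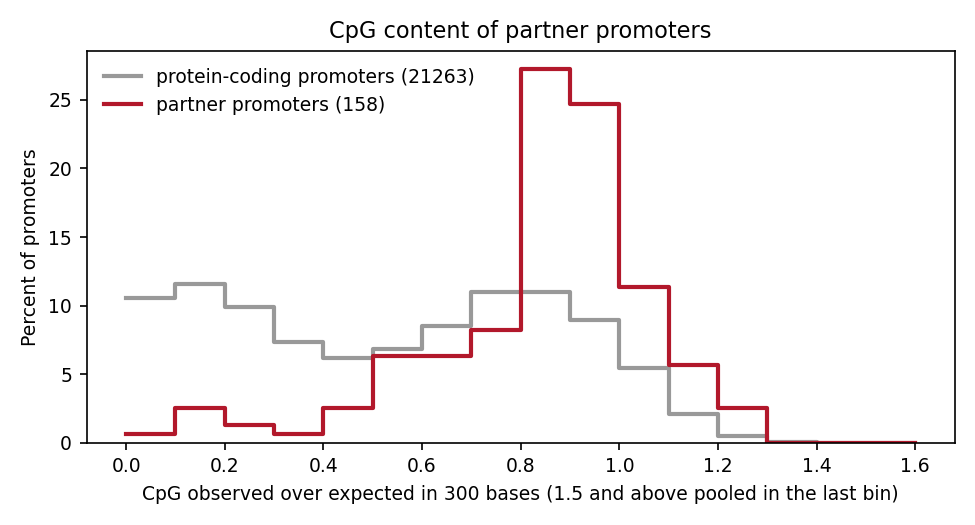
Ratio of observed to expected CpG in promoter windows of 300 bases, as percent of promoters per bin of 0.1. The 158 partner promoters (red) gather between 0.8 and 1.0, while the 21263 protein-coding promoters (grey) spread from 0 upward, with medians of 0.88 and 0.57.

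Short motifs were counted in the same windows on either strand. GGGCGG, the core of an Sp1 site, was in 124 partner promoters (78.5%), against 46.2% of protein-coding and 35.7% of all promoters. CCGGAAG, the core of an Ets site, was in 40 (25.3%), against 11.6% and 8.86%. ATGGCGG, part of a YY1 site, was in 18 (11.4%), against 5.25% and 4.05%.
TGACGTCA, the cAMP response element, was in 10 (6.33%), against 2.23% and 1.79%. TATAAA was in 5 (3.16%), against 12.6% and 13.6%. The remaining motifs were nearer to the other promoters. CCAAT was in 56 (35.4%, against 38.2% and 37.4%), GCATGCGC of an NRF1 site in 7 (4.43%, against 3.52% and 2.71%) and CACGTG in 15 (9.49%, against 7.84% and 7.15%). TGANTCA, which AP-1 factors such as Fos bind, was in 8 (5.06%, against 6.99% and 7.81%). No motif of this list contains another. A match in these letters is a description and not a site, and partner promoters are also richer in GC, which moves such counts.

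In the array data, the members' log2 values in the authors' quantile normalized table had medians over all 216 of 5.63, 6.51, 6.76 and 5.98 in the order of time. A signal well above background was called for 131 members (60.6%) on the 0 h array and for 158 (73.1%), 165 (76.4%) and 179 (82.9%) on the later ones. Over all probes the shares were 62.3%, 58.8%, 59.8% and 66.8%. Since members were taken from lists that were mostly of rises, and had to be detected on some array, nothing is read from their shares. Such a signal was found on all 4 arrays for 123 members (56.9%) and on a single array for 55. No member carried an outlier or saturated spot, and 12 had an entry for cross-hybridisation. Where a probe was not well above background on 1 of the 2 arrays compared, a value under a floor was raised to it. The floor was the lowest value among probes well above background on that array, and the change is given as "at least". These floors were 4.81, 5.17, 5.15 and 4.41 on the log2 scale in the order of time. As they differ, a detected value can lie under the floor of the other array. The change then takes the opposite sign and is no bound. This was so for 8 of the 32 members listed as higher at 96 h alone, whose change from 0 h came out negative. Normexp background correction with an offset of 50 took 32 of 54 changes past 2-fold, recomputed for part of the members named below, under that limit. Scaling to the 75th percentile and scaling to the median of bright probes took 8 each, and no direction turned among these 54. The rises past 4-fold that are given as bounds were not recomputed in this way. Spots of 1 probe repeated within an array had a median SD of 0.05 to 0.07 on the log2 scale, which covers the array's own error alone.

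At 72 h against 0 h, the comparison within 1 slide, 165 members entered and 118 of them were at least 2-fold higher, of which 97 were measured on both arrays. Across all 39555 probes that entered, 4.35% were 2-fold higher and 5.31% 2-fold lower. None of the members was 2-fold lower. The median log2 change was 1.14 for the members and 0.05 for all probes. The list of rises at 72 h chose 138 of the 216 members, so nothing is read from this contrast. At 24 h, 165 entered, 40 were higher (17 measured on both arrays and 23 as bounds) and 4 lower, with 3.40% and 6.14% of 39289 probes as background and median log2 changes of 0.45 and 0.10. At 96 h, 181 entered, 36 were higher (25 measured and 11 as bounds) and 8 lower (6 and 2), with 5.72% and 8.42% of 41936 probes as background and medians of 0.14 and 0.05. The least change that placed a member in a list was that of AK015663, 2.01-fold at 72 h. All 255 entries of members were at or over 2-fold in the value table.

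AK045688 had the largest rise measured on both arrays at 72 h. It lies at chr15:81800791-81802613 (minus strand) next to Tef, a PAR bZIP transcription factor of the circadian output. Its log2 values were 7.76, 7.64, 10.45 and 7.31 at 0, 24, 72 and 96 h. The 72 h array alone stood out, 6.44-fold above 0 h.
AK007104 (chr2:112265170-112265821, minus), for which no partner was found, read 8.73, 8.99, 11.29 and 8.81 and was 5.92-fold higher at 72 h. AK044613 (chr5:144223725-144225520, plus) faces Tecpr1, a tethering factor of autophagosomes and lysosomes, and read 7.76, 7.85, 9.93 and 7.23, a 4.52-fold rise. In these 3 lncRNAs, the 0, 24 and 96 h values lay within 1 log2 unit of each other. AK085917 near Znrf2, a ubiquitin ligase, read 6.74, 7.17, 8.70 and 7.53 (3.88-fold at 72 h). AK134474 starts 24 bases from Ubr1, the ligase of the N-degron pathway, and read 6.14, 6.29, 8.00 and 6.45 (3.63-fold).

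Among members dim at 0 h, 3 passed 4-fold at 72 h and are named because of these values. With the first 3 above, 6 of 165 members passed it, against 0.604% of all probes. AK161406 (chr11:78292845-78301507, minus) faces Spag5, a protein of the mitotic spindle, and read 4.45, 4.65, 7.67 and 4.52. It was well above background at 72 and 96 h only, and rose at least 7.27-fold to 72 h. Gm12319 near Eno3, the muscle enolase, rose at least 4.21-fold, and AK087877 near Kcng3, a potassium channel subunit, at least 4.11-fold. Each of the 3 was highest at 72 h.

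**Figure D3:**
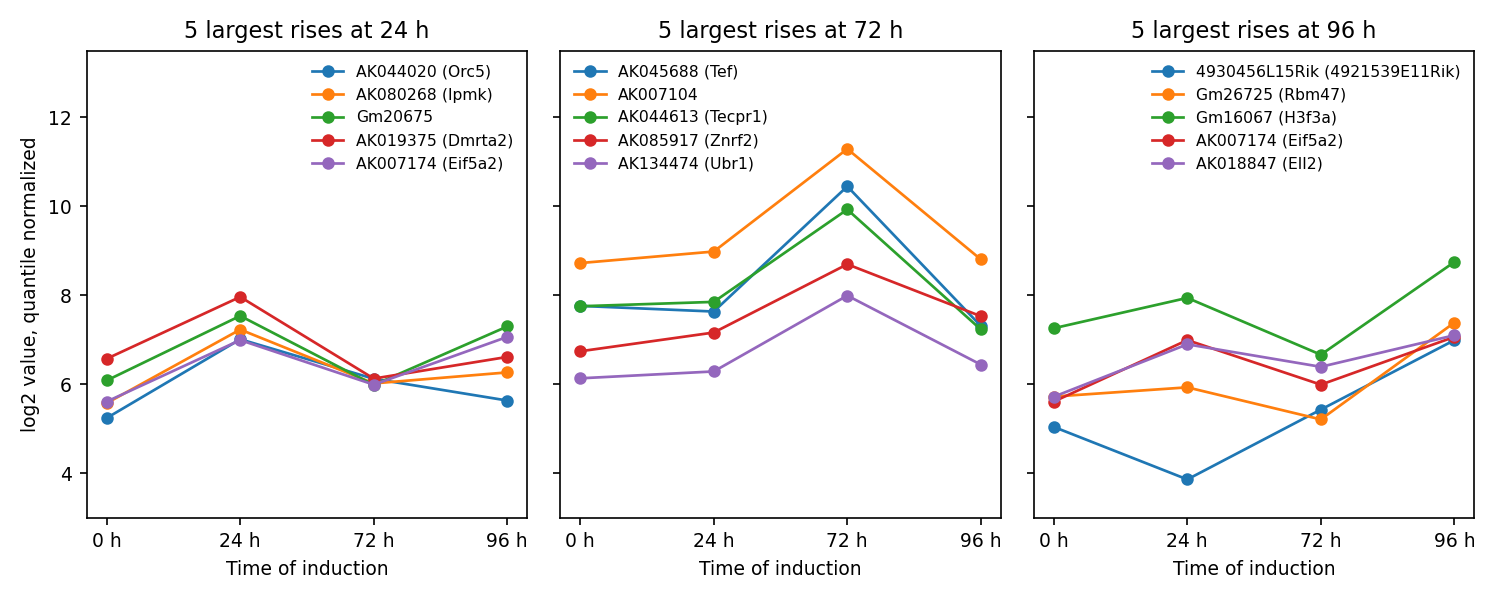
Log2 value (quantile normalized) on each array for the 5 lncRNAs with the largest rise at 24, 72 and 96 h among those well above background on both arrays, with the partner gene in parentheses. In the 72 h panel each line peaks at 72 h, for AK045688 at 10.45, and in the 24 h panel each line peaks at 24 h except AK007174, which is at 7.00 there and at 7.07 at 96 h.

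At 24 h, AK044020 (chr5:22550437-22701499, plus) had the largest rise measured on both arrays. Its partner Orc5 is a subunit of the origin recognition complex. The lncRNA read 5.24, 7.01, 6.13 and 5.64, which is 3.41-fold higher at 24 h, with the 72 and 96 h values in between. AK080268 starts 131 bases from Ipmk, an inositol polyphosphate kinase, and read 5.58, 7.23, 6.02 and 6.27 (3.15-fold). Gm20675, with no partner found, read 6.09, 7.54, 5.99 and 7.30 (2.74-fold), high on both arrays of slide 2. AK019375 near Dmrta2, a DM domain transcription factor, read 6.58, 7.97, 6.13 and 6.62 (2.62-fold). AK007174 near Eif5a2, a translation factor, read 5.61, 7.00, 5.99 and 7.07, so that it was 2.61-fold higher at 24 h and 2.74-fold at 96 h. Whether the slide has a part in values that are high at both 24 and 96 h was not tested. After normexp background correction each of these rises at 24 h was under 2-fold, with log2 changes of 0.80, 0.93, 0.92, 0.78 and 0.65 in the order named.

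All 9 members past 4-fold higher at 24 h, where 0.56% of all probes passed it, were not well above background at 0 h, so these rises are bounds. AK006396 (chr13:47106419-47109519, plus), which faces the chromatin protein Dek, read 3.40, 8.38, 2.67 and 2.61 and rose at least 11.9-fold. AK089379 near Eaf2, an elongation factor partner, read 2.70, 7.85, 3.71 and 2.63 (at least 8.25-fold). XLOC_027283 near Pou3f4, a POU domain transcription factor, read 2.67, 7.82, 2.67 and 2.64 (at least 8.08-fold). These 3 were well above background at 24 h and on no other array. Gm26706 near Snrpe, a core protein of the spliceosome, rose at least 6.21-fold, 4930532G15Rik near Eprs, a tRNA synthetase, at least 5.89-fold, and 1700003G18Rik near 1110004F10Rik at least 5.33-fold. AK018539 rose at least 5.07-fold, AK155680 near Tmem94 at least 4.80-fold, and 4930540M05Rik near Rad52, a protein of homologous recombination, at least 4.76-fold. Of these 6, 4930532G15Rik was also well above background at 72 h and 4930540M05Rik at 96 h. The 9 were named because of these values.

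The members that fell at 24 h were few. AK158719 (chr4:141875710-141877032, plus) near Efhd2, a calcium-binding protein of leukocytes, read 12.61, 10.45, 12.17 and 13.17. The 24 h value was 4.45-fold under that of 0 h, and the 96 h value was the highest. XLOC_000164 read 11.59, 9.88, 11.60 and 10.72 (3.28-fold lower). One probe of F730043M19Rik near Atxn7l1 read 10.75, 9.63, 10.90 and 10.40 (2.18-fold lower), and AI314831 read 6.85, 5.78, 7.36 and 7.14 (2.10-fold lower). All 4 were low at 24 h and at 72 h were back within 0.6 log2 units of the 0 h value. AK040320 read 8.62, 7.74, 9.69 and 7.82. Its 24 h value was 0.88 log2 units under that of 0 h and it was 2-fold higher at 72 h.

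At 96 h, 4930456L15Rik had the largest rise measured on both arrays, and the lists gave it as lower at 24 h. It faces 4921539E11Rik at 96 bases and read 5.04, 3.86, 5.43 and 6.99. At 24 h it was not well above background and the level there is only bounded, while at 96 h it was 3.86-fold higher. Gm26725 faces Rbm47, an RNA-binding protein, and read 5.73, 5.93, 5.21 and 7.39 (3.16-fold). One probe of Gm16067, which faces the histone gene H3f3a, read 7.26, 7.94, 6.67 and 8.75 (2.81-fold). AK018847 near Ell2, a transcription elongation factor, read 5.72, 6.90, 6.39 and 7.10 (2.61-fold). Gm26725, Gm16067 and AK018847 were also higher at 24 h than at 72 h. After normexp the rises of 4930456L15Rik and AK018847 at 96 h were under 2-fold (log2 0.93 and 0.74). Those of Gm26725 and Gm16067 stayed past it (1.06 and 1.13).

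4930555J06Rik (chr12:40038099-40040027, plus) was the single member past 4-fold higher at 96 h, where 0.386% of all probes passed it. Its partner Arl4a is a small GTPase. The probe read 2.64, 2.58, 2.67 and 7.32 and was well above background at 96 h alone, a rise of at least 5.71-fold. It was named because of these values.

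The largest fall at 96 h was that of Atad3aos, whose name marks the opposite strand of Atad3a, a mitochondrial ATPase. The probe of its transcript NR_027971 (chr4:155761192-155762260, plus) read 7.61, 7.94, 8.74 and 5.20, which is 2.19-fold higher at 72 h and 5.31-fold lower at 96 h than at 0 h. The probe of NR_027972 read 5.32, 6.46, 6.97 and 4.53. 2610204G22Rik overlaps both on the same strand and read 6.76, 7.49, 7.81 and 5.56. The 3 probes share this locus and were each highest at 72 h and lowest at 96 h. The probes of NR_027972 and 2610204G22Rik also share a long run of bases, so these 2 are not separate readings.

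Further members lowest at 96 h were AK018874, AK142996 and Gm15627. AK018874 near Atxn2, an RNA-binding protein, read 9.31, 10.00, 10.49 and 8.16 (2.22-fold lower at 96 h). AK142996 near Bmp2k, a kinase named for its induction by BMP2, read 7.53, 7.97, 9.15 and 6.38 (2.21-fold lower). Gm15627 near Castor2, a relative of the arginine sensor Castor1, read 6.90, 7.52, 8.04 and 5.83 (2.10-fold lower). In each of them the values rose from 0 through 24 to 72 h and then dropped below the starting value. Of the 147 members that entered at both 72 and 96 h, 7 were 2-fold higher at the first and 2-fold lower at the second, against 0.448% of all probes that entered.

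No member fell 2-fold at 72 h. The lowest changes there were in lncRNAs that were listed for another time point. 2210008F06Rik near Ankrd13b read 10.76, 10.02, 9.99 and 12.13, and 2610016A17Rik near Dmrt2, a DM domain transcription factor, read 9.89, 9.69, 9.18 and 10.99. AK015639 near Kctd7 read 8.06, 9.09, 7.39 and 8.86. Their 72 h values lay 0.77, 0.70 and 0.67 log2 units under those of 0 h.

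Only B130034C11Rik, through 1 of its 2 probes, passed 2-fold at all 3 later time points, out of 134 members that entered at each of them. Of all probes that did so, 0.123% passed. This probe of the transcript uc007zum.1 read 4.62, 5.82, 6.63 and 6.29 and was not well above background at 0 h. The rises were at least 2.02-fold, 3.54-fold and 2.80-fold. The call at 24 h was lost when arrays were scaled to the median of bright probes (log2 0.99), and all 3 were lost after normexp background correction (0.44, 0.77 and 0.58). The 2 transcripts start 130 and 204 bases from Cct8. The probe of NR_040375 read 9.61, 10.23, 10.97 and 9.56. Both probes were highest at 72 h, but at 96 h the second one lay at its 0 h value. Their partner Cct8 is a subunit of the chaperonin TRiC.

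Probes of 1 lncRNA differed in other cases too. The 2 probes of F730043M19Rik read 10.75, 9.63, 10.90 and 10.40 for ENSMUST00000172344, which has a cross-hybridisation entry, and 13.00, 13.64, 14.15 and 12.76 for ENSMUST00000148740. The first was low at 24 h and the second was not. Of the 2 probes of Gm16067, that of ENSMUST00000097448 read 2.95, 3.45, 3.56 and 4.46. It was well above background at 96 h alone and was the member nearest to the detection limit, and no listed bidirectional probe lay outside that limit.
The 3 probes of Gm15850, all with a cross-hybridisation entry, were not well above background at 0 h and were so at 72 h, with log2 values of 5.66, 5.61 and 6.78. Only the first of them was well above background at 24 h (6.16), and the other 2 were so at 96 h (4.58 and 5.04). The first 2 of these probes share most of their bases, so their unlike values are not read as a difference between transcripts. Copb2, a subunit of the COPI coat, faced 2 overlapping lncRNAs. AK077474 read 5.22, 5.54, 6.40 and 5.52, and 4930579K19Rik, well above background at 72 h alone, read 3.01, 4.40, 6.44 and 4.13.

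Among lncRNAs named for the opposite strand of a gene, Mkln1os differed from the others in its time course. It starts 75 bases from Mkln1, a subunit of the CTLH ubiquitin ligase, and read 8.41, 9.61, 7.89 and 9.66. It was thus 2.31-fold higher at 24 h and 2.39-fold at 96 h but not at 72 h. Stamos faces Stam, an endosomal sorting protein, and read 9.01, 9.18, 10.46 and 9.19 (2.74-fold at 72 h). Tmem51os1 and Vax2os were well above background at 72 h alone, at 5.47 and 5.89. Snhg1, a host gene of small nucleolar RNAs, read 13.76, 14.17, 14.81 and 14.00 and was 2.07-fold higher at 72 h. AK140257 was listed as higher at 24 h and lower at 72 h, and read 3.94, 6.56, 2.67 and 2.69. It was well above background at 24 h alone, so that its fall at 72 h lies below background on both sides and has no fold.

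In the list rows used here, 116 members were higher at 72 h alone, 32 at 96 h alone and 27 at 24 h alone. Another 35 were in more than 1 list and 6 were in the list of falls at 24 h alone. The rows not used may place some of these members at further time points. The members listed for 72 h alone had median log2 values of 6.67, 6.79, 7.92 and 6.35 in the order of time, dim values included. Member by member, the change from 0 h to 96 h had a median of -0.05 in the 102 that entered, 48 upward and 54 downward. All 4 arrays detected 84 of these 116. Their change from 24 h to 72 h was upward in 115 of the 115 that entered, with a median of 1.02. From 72 h to 96 h it was downward in 115 of 116, with a median of -1.50 and 85 past 2-fold. These signs are in part fixed by the choice of members at 72 h.
Between 24 and 96 h, both on slide 2 and used in the choice only through absence from their lists, 74 of 103 were lower at 96 h, with a median log2 change of -0.31, and 17 were 2-fold lower. All probes had a median of -0.04 there. The floor was higher at 24 h (5.17) than at 96 h (4.41), which moves members not well above background at 24 h towards lower. Of the 116, 87 were well above background at 24 h and 101 at 96 h, so nothing is read from this contrast. Members listed for 24 h alone had medians of 4.59, 6.97, 4.69 and 4.93, and those listed for 96 h alone had 4.63, 5.04, 4.64 and 6.21.

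**Figure D4:**
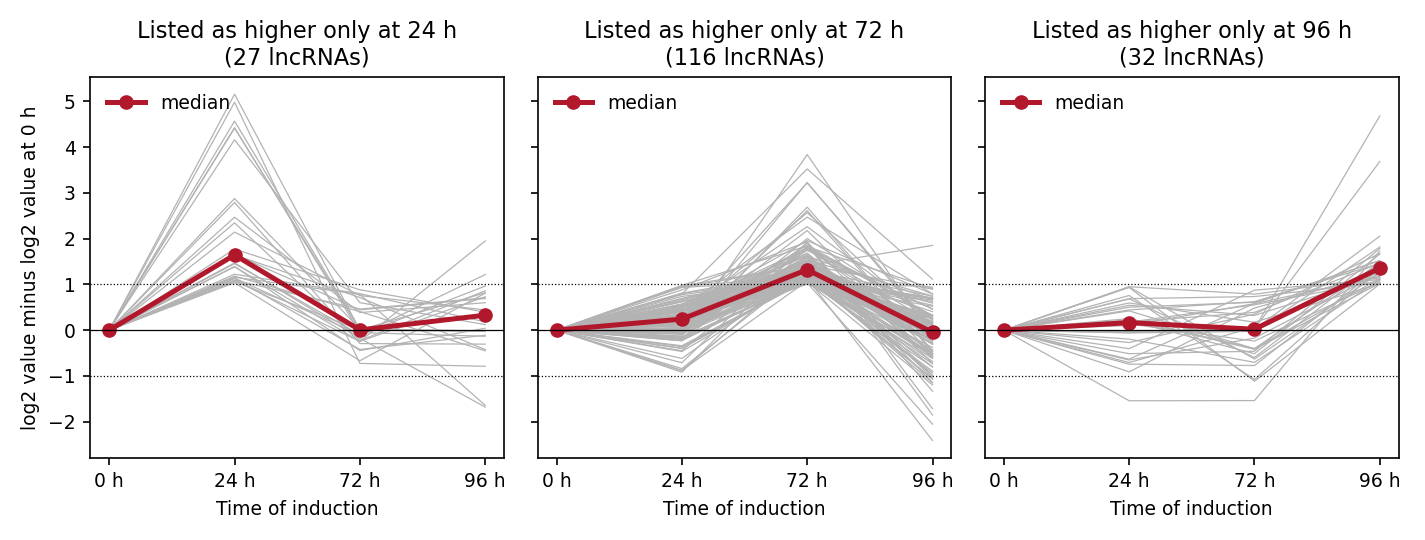
Log2 value minus that at 0 h for each lncRNA (grey) and their median (red), for members listed as higher at 24, 72 or 96 h alone. Values not well above background are drawn as the table gives them, dotted lines mark 2-fold, and the rise at the listed time was the ground for choosing the members. At each other time point the red line lies closer to 0 than at the listed one.

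Between the later arrays, 65 of 192 members were 2-fold higher at 72 h than at 24 h and 26 lower, with 8.32% and 8.20% of all probes as background. From 72 to 96 h, 19 of 199 were higher and 93 lower, against 10.9% and 12.9%. The members' median log2 change there was -0.93. From 24 to 96 h, 13 of 201 were higher and 44 lower, against 5.33% and 6.51%, with a median of -0.25. The drop from 72 h to 96 h crosses slides.

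The 72 h array held the highest of the 4 values for 128 members (59.3%), the 96 h array for 50 (23.1%), the 24 h array for 38 (17.6%) and the 0 h array for none. Over all 43139 probes detected on any array, the shares were 28.9% for 72 h, 32.5% for 96 h, 24.1% for 24 h and 14.5% for 0 h. The nearer background is the other classes, which the same lists chose in the same way. There 46.4% of 420 natural antisense, 35.1% of 302 intronic antisense, 35.0% of 909 exon sense-overlapping and 31.7% of 1925 intergenic lncRNAs were highest at 72 h. The share listed as higher at 72 h was 63.9% for bidirectional lncRNAs, 52.1% for natural antisense, 38.9% for exon sense-overlapping, 37.2% for intergenic and 37.1% for intronic antisense ones. At 24 h the share was 24.1% for bidirectional lncRNAs, against 32.6% to 41.4% in the other 4 classes. At 96 h, where the list lacks 766 rows, it was 26.4% against 37.4% to 46.7%. Each probe had to be in some list, and most lists were of rises. A larger share at 72 h thus goes with smaller ones at 24 and 96 h, and nothing further is read from the latter.
A larger share of bidirectional lncRNAs was detected on all 4 arrays, 56.9% against 33.4% to 49.2%, and the part of signal level in these shares was not tested. With 1 array per time point, the differences between classes carry no error over repeated cultures.

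**Figure D5:**
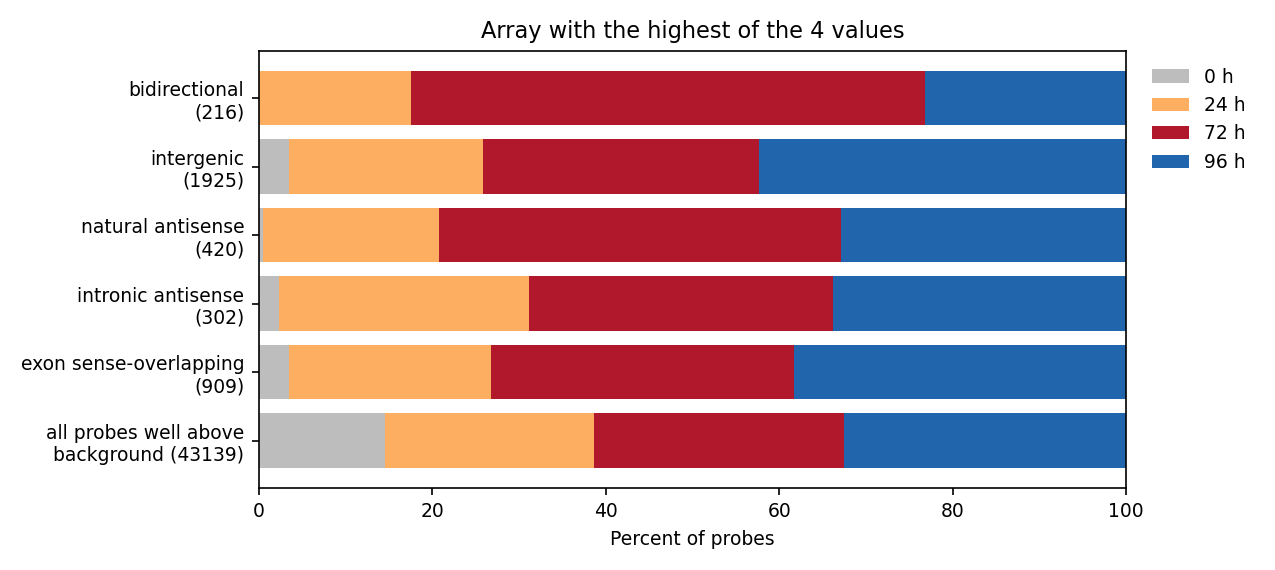
Percent of probes whose highest value was on the 0, 24, 72 or 96 h array, for 5 classes of listed lncRNAs and for all probes detected on any array, with the number of probes in parentheses. The 72 h part (dark red) is 59.3% for bidirectional lncRNAs and 31.7% to 46.4% in the other classes.

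Among the members listed for 72 h alone, the drop to 96 h had a median log2 change of -1.50 for bidirectional lncRNAs. It was -1.27 for natural antisense, -1.28 for exon sense-overlapping, -1.26 for intergenic and -1.21 for intronic antisense lncRNAs. The medians of the 5 classes lay within 0.3 log2 units of each other, without an error to set this against. Between 24 and 96 h their medians lay between -0.39 and -0.29, with -0.31 for bidirectional lncRNAs. The unequal floors of the 24 and 96 h arrays enter these medians too.

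The levels of the partner mRNAs could not be read, since the files pair no mRNA with a probe. For 11 members the same lists held a transcript that overlaps exons of the partner gene in sense, which is a non-coding form and not the mRNA. Member and sense transcript were highest on the same array in 4 of the 11. For AK044020 and Orc5, the lncRNA read 5.24, 7.01, 6.13 and 5.64 while the sense transcript read 5.51, 6.00, 6.36 and 6.56, one highest at 24 h and the other at 96 h. AK155234 faces Ptpn1, a tyrosine phosphatase, and read 7.42, 7.85, 8.84 and 7.11. The Ptpn1 sense transcript read 11.76, 11.98, 11.35 and 12.80 and was lowest where the lncRNA was highest.
2810403D21Rik and the sense transcript of Brwd3, a bromodomain protein, were both highest at 72 h (6.12 and 5.99). Gm12204 faces Ube2b, a ubiquitin-conjugating enzyme, and was well above background at 24 h alone (5.39), whereas the Ube2b transcript read 4.85, 6.47, 5.19 and 6.51. These pairs, named after their values were seen, were chosen on change on both sides, so their shared or separate peaks carry no weight beyond the values. None of the 158 partner genes found was among the 16 osteoclast or the 8 macrophage marker genes looked for. Partners were found for 162 of the 216 members. A marker gene that falls in the gap of the promoter table given above could not have been found. The absence therefore covers the partners found and not the other members.

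For the lncRNAs whose promoters are shown, the 60-base array probes are given from the study's annotation, since a change is a change of what these probes bind. Both probes of Atad3aos are added because they read 2 transcripts of 1 locus.
AK045688: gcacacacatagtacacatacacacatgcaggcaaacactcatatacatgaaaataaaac
AK161406: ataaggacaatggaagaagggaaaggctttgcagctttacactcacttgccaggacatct
AK044020: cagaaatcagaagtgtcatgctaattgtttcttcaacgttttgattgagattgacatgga
AK006396: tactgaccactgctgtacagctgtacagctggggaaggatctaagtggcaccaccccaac
4930456L15Rik: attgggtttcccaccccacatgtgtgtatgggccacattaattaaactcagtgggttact
4930555J06Rik: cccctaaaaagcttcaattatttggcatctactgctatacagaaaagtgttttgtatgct
Atad3aos (NR_027971): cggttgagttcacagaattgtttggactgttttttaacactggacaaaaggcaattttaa
Atad3aos (NR_027972): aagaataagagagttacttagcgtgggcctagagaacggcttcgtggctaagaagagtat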

How the data were processed

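The time points of RAW264.7 induction were each measured on 1 array. Per the file headers, the authors read the spots with Feature Extraction 11.0.1.1, and they deposited its processed signal, median signal and local background as intensity values with flags. They also deposited log2 values of 60804 probes, quantile normalized with GeneSpring, which are the values used here. Those computed here from the spots differed from them by a median of 0.001. Class, symbol, probe sequence and position came from the study's supplementary lists, and their fold change column was not used. Listed starts count from 0 (231 of 266 RefSeq lncRNAs start 1 base below RefSeq) and were raised by 1. The lists are on GRCm38 and the array design on mm9.

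A probe entered a comparison when either of its 2 arrays detected it well above background, with the floors and the limit of 2-fold given above. No p-value was computed, since no time point was repeated, and the small number of arrays limits the precision of all values. The functions were tested on simulated data. Partners were the nearest start on the other strand within 1000 bases, from RefSeq promoters of GRCm38.p6. Whether labelling kept the strand is not given in the sources used here.

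Members and lists were chosen with earlier results of these data known. Named lncRNAs are the 5 that rose most and up to 5 that fell most in each comparison with 0 h among those well above background on both arrays, those past 2-fold in 1 direction at all later times, those listed in both directions, those with symbols in os or Snhg, symbols with more than 1 member, partners in the marker lists, and the member nearest to the detection limit. Members past 4-fold and pairs with a sense transcript were added after their values were seen. Alternatives were spot values, scaling to the 75th percentile or to the median of probes detected on every array, normexp with an offset of 50, stricter filters, no filter and floor, limits of 1.5-fold and 4-fold, 1 probe per symbol, no cross-hybridising probes, and partner distances of 500 and 2000 bases. Normexp was run in R 4.3.3 (limma 3.58.1). All other steps were run in Python 3.11.15 (numpy 2.4.6, pandas 2.3.3, matplotlib 3.10.9).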

Additional observations from a re-analysis of the deposited data

Results flagged for a closer look

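At 7 members the change from 0 h was at least 2-fold upward at 72 h and at least 2-fold downward at 96 h, on 1 array each, and the difference was not tested. The gap between the 2 log2 changes was 3.54 for Atad3aos (NR_027971), 2.77 for AK142996, 2.33 for AK018874, 2.25 for 2610204G22Rik and 2.22 for Gm15627, whose values stand above. It was 2.25 for AK017099 near Pheta1, an endosomal adaptor, which read 7.05, 7.86, 8.24 and 5.99. It was at least 2.75 for Gm9958 near Ankrd17, which read 6.13, 6.40, 7.16 and 4.08 and was not well above background at 96 h. Over all 38823 probes that entered both comparisons, 174 (0.448%) showed this pattern. After scaling to the 75th percentile, 2 of the 7 members passed both limits, after scaling to the median of bright probes 3, and after normexp 1. The calls lost under the first scaling were those of 2610204G22Rik (0.96 and -0.95), AK142996 at 96 h (-0.97), Gm15627 at 96 h (-0.86), AK017099 at 96 h (-0.87) and Gm9958 at 72 h (0.86). Under normexp, Atad3aos was at 0.99 at 72 h, and AK018874 kept both calls. Atad3aos and 2610204G22Rik share a locus, and AK017099, AK018874, AK142996, Gm15627 and Gm9958 all lie on chromosome 5. Of all 216 members, 20 lie on chromosome 5. The share of that chromosome among the 174 probes with this pattern was not computed. The 72 h array shares a slide with the 0 h array and the 96 h array does not, so that slide and time cannot be told apart.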

How the results depend on the processing

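No alternative reversed a direction among the results recomputed, and the count of partners (141 to 163) stayed within 1.5 times. Members highest at 72 h were 128 of 216 in the main setting and 119 of 216 under 75th percentile scaling. They were 91 of the 123 well above background on all 4 arrays, a larger share. Normexp with an offset of 50, which by construction shrinks changes of dim probes, gave 14, 41 and 12 members higher at 24, 72 and 96 h in place of 40, 118 and 36, and 2 lower at 96 h in place of 8, with median log2 changes of 0.28 at 24 h and 0.71 at 72 h. Members well above background on both arrays gave 17 higher at 24 h with a median of 0.32, as did those so on all 4 arrays (17 and 0.32). Without filter and floor, 62 were higher at 96 h, and 8, 5 and 15 lower at 24, 72 and 96 h, with medians of 0.37 at 24 h and 0.25 at 96 h. Scaling to the 75th percentile gave 5 lower at 96 h and medians of 1.07 at 72 h and 0.37 at 96 h, and scaling to the median of bright probes 0.33 at 96 h, for which the cause was not tested. Under these scalings 90 and 91 members were higher at 72 h. A limit of 1.5-fold gave 64 higher at 24 h and 10, 4 and 20 lower at 24, 72 and 96 h, and one of 4-fold gave 9, 6 and 1 higher and, at 24 and 96 h, 1 and 1 lower. Over all probes detected on both arrays, the median change at 24 h was 0.12 in the authors' values and 0.08 to 0.11 under the other normalizations. The slide as a block could not be fitted, and leaving out an array leaves no time point. No paired analysis was possible because each group has 1 array.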
